A study of Homo sapiens with 56 samples.

Results

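The 77 genes described here encode proteins of the cytosolic ribosome. They were taken by name from the 21596 rows of a series-wide expression table: rows marked protein_coding whose symbol is RPL or RPS followed by a number (with an optional A or X), and RPLP0, RPLP1, RPLP2 and RPSA. Of the 77, 46 belong to the large subunit (RPL and RPLP symbols) and 31 to the small subunit (RPS symbols and RPSA). The study measured poly-A RNA in 56 libraries of 4 mantle cell lymphoma cultures, labelled JEKO-1 (15 libraries), Z138 (13), MINO-P (15) and MINO-VR (13); mantle cell lymphoma is a B-cell cancer. Cells were untreated (CON, 5 libraries) or carried the treatment label CLF (6), BTZ (6), IBR (11), YM155 (4) or S63845 (6), or a pair of them: IBR_CLF (8), BTZ_CLF (4), IBR_YM155 (2), BTZ_YM155 (2), IBR_S63845 (1) and BTZ_S63845 (1). The labels give no dose or time, do not spell out CLF, BTZ, IBR, P or VR, and do not say whether libraries of a group came from separate cultures, so a p-value measures the spread between these libraries, which may be technical. YM155 lowers survivin (BIRC5) and S63845 inhibits MCL-1, the proteins named in the study's title. Of the 37 groups of line and treatment, 22 hold 1 library, 11 hold 2 and 4 hold 3. In MINO-P and MINO-VR the CON, CLF, BTZ and BTZ_CLF libraries carry names of a series called HK and the others of a series called MCL, so within those cultures the name series and these treatments cannot be told apart.

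A ribosome holds a single copy of nearly every ribosomal protein, so a cell makes these proteins in matched amounts and degrades those that are left unassembled. Their mRNAs are among the most abundant in growing cells, are short, and most begin with an unbroken stretch of pyrimidines, the 5' TOP motif, through which mTOR signalling sets how strongly they are translated. Lymphoma cells that divide quickly depend on this supply, and MYC raises the genes that build ribosomes.

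Stretches of this kind lay near the annotated start of most members that could be looked at. They were counted anywhere in a window around the start, so the count does not show that an mRNA begins with one. RefSeq start windows (GRCh38.p14, 10 bases before to 20 bases from the annotated start) were at hand for 62 of the 77 members, in 77 entries since some genes have several starts. An unbroken run of at least 8 letters that are all C or T lay in 56 of these 77 entries (72.7%), against 4465 of the 35116 entries of all genes (12.7%). On the other strand the share was 5.19% of the members' entries and 10.7% of all entries. The windows below are those of the 3 members with the highest level per kb and of the members named later in the comparisons of cell lines, each from the entry nearest to the start of the transcript used for its length. Capitals mark the longest run of C and T letters in each.
RPL13 (chr16:89560672-89560701, plus strand): gggccgCTTCCTTTCCgctcggctgttttc
RPS19 (chr19:41860394-41860423, plus strand): cccgCCCCCTagagccgcggccacgtgcga
RPS15 (chr19:1438386-1438415, plus strand): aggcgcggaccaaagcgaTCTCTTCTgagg
RPS26 (chr12:56041908-56041937, plus strand): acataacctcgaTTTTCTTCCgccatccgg
RPL10 (chrX:154398055-154398084, plus strand): ccaCTCTCagaaatatacgtctgtcacagt
RPL26 (chr17:8383174-8383203, minus strand): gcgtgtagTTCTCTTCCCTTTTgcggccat
RPL9 (chr4:39458903-39458932, minus strand): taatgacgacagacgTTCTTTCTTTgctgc
RPL31 (chr2:101002279-101002308, plus strand): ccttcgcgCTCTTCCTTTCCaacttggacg
RPS3 (chr11:75399508-75399537, plus strand): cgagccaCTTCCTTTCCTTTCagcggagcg
RPL7A (chr9:133348208-133348237, plus strand): aTTCCCTTTCCTTTCTCTCTCCTCCCgccg
RPL41 (chr12:56116623-56116652, plus strand): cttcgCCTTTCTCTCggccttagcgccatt
RPS27 (chr1:153990752-153990781, plus strand): cgctttcgCTCCTTTCCggcggtgacgacc
RPS29 (chr14:49598691-49598720, minus strand): agcgcgcagctggcagcggtggttgTTTCT
RPS23 (chr5:82278335-82278364, minus strand): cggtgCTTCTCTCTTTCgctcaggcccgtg
The run is 25 letters long in RPL7A and 14 in RPL26 and RPS3, while RPL10, RPS29 and RPS19 have no run above 6 in these windows. The members that differed between lines in the results below are found with and without a long run, so the windows are shown as the letters that most members share and not as a feature of those that differed.

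All values below are in CPM, a gene's reads scaled to a common library total, after the 15 Chromosome M rows were left out and each library was rescaled to that total, unless called as deposited; differences are in log2(CPM + 1). The share of Chromosome M in the deposited values ran from 1.91% to 80.5% of a library (median 6.7%), and exceeded 59% in 6 JEKO-1 libraries (2 each of BTZ, BTZ_CLF and IBR_CLF). Depth read from the steps of low values was 5.52M to 21.6M reads a library, and 3 reads corresponded to at most 0.543 CPM. All 77 members were at 1 CPM or more in 55 of the 56 libraries. The exception was JEKO-1 BTZ replicate 3, which stood apart from the other BTZ libraries of that line: it held RPS26 at 0, RPL39 at 9.67 CPM and RPL10 at 55.1 CPM, and RPSA at 4369.6 CPM, the highest RPSA level of any library. JEKO-1, MINO-P and MINO-VR libraries whose names differ only by a final a were very alike: the median absolute log2 difference of the members was 0.08 to 0.18 in these 8 pairs and 0.60 to 1.49 in the 10 other pairs of one group; it was 0.36 to 1.22 in the 5 Z138 pairs named with a final A. All 9 B-cell and mantle cell markers, among them CCND1 (median 963 CPM) and MS4A1 (601), had a median above 1 CPM, while the T-cell markers summed to a median of 0.0513 CPM (range 0 to 11.2) the myeloid markers to 0.737 CPM (0 to 13.5) and the erythroid markers HBA1 and HBB to 0.271 CPM (0 to 55.7). CD3D, CD3E and CD2 were at 0 in the median library.

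The members ranked among the most abundant transcripts of these cells. By median CPM, 39 of the 77 were among the 100 highest genes outside Chromosome M and 66 among the 500 highest. Per kb of transcript the median member stood at 999 CPM per kb, and the levels spanned from 29.5 to 3517 CPM per kb. The highest were RPL13 (3517), RPS19 (2911), RPS15 (2816), RPS3 (2595) and RPS18 (2384), all in CPM per kb. RPS19 is the gene most often mutated in Diamond-Blackfan anaemia, and RPS3 lies at the mRNA entry of the small subunit. The lowest in CPM per kb were RPS28 (29.5), RPL36A (41.5), RPL21 (42.9), RPL9 (72.9) and RPL37 (76.7). These low values are set beside the pseudogene rows and the transcript lengths. The rows of processed pseudogenes named after RPL36A and RPL21 held 96.2% and 95.7% of the CPM of gene and pseudogenes together, those of RPS28 26.9% and those of RPL9 7.38% (medians over libraries). Members with large pseudogene shares were not all low. The share was 70.2% for RPL13A and 58.3% for RPS3A, which averaged 1057 and 1291 CPM in the 5 CON libraries. Whether share and level go together was not tested. The transcript used for RPL37 is 7686 nt long, against a median of 705 nt over the members. Before division by length RPL37 averaged 565 CPM in the 5 CON libraries, near RPL30 at 608 CPM. RPS28, RPL36A, RPL21 and RPL9 averaged 41.2, 20.8, 27.2 and 68.2 CPM in the same libraries. The place of RPL37 among the lowest per kb thus rests on the transcript used, and its CPM was not low like theirs. How reads shared by a gene and its copies were counted is not given in the sources used here, so the level of a member with abundant pseudogenes is uncertain. In 10 members the pseudogene rows held more than 50% of the joint CPM, and in 48 members less than 10%.

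**Figure D1:**
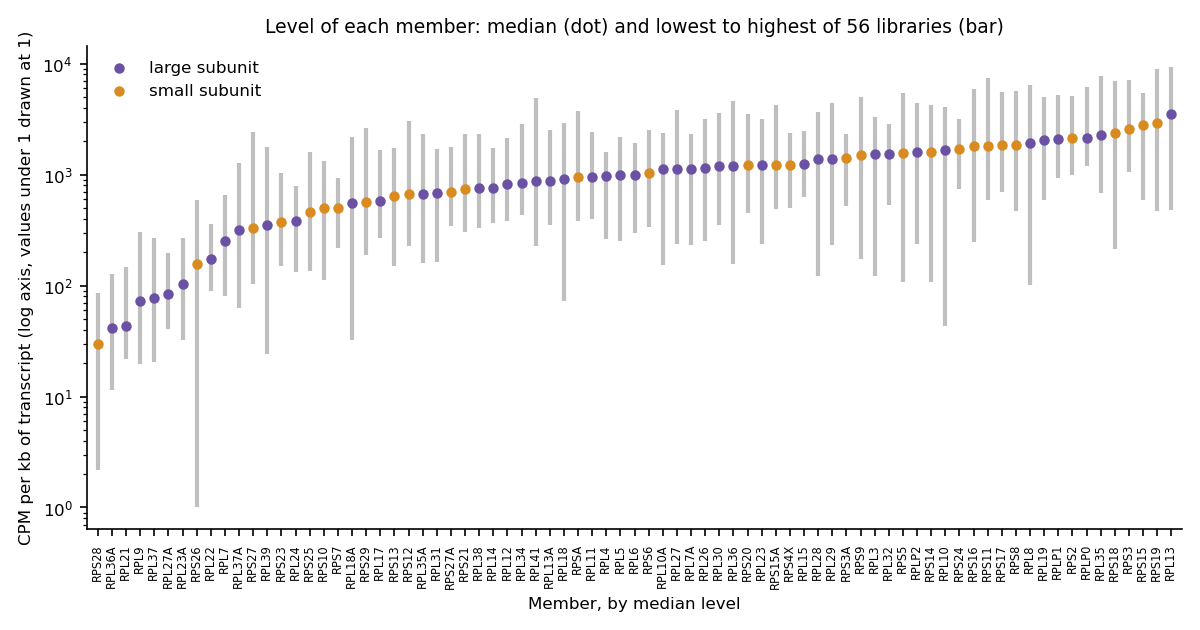
CPM per kb of reference transcript (y axis, log) for each of the 77 members (x axis, ordered by median); dots are medians and bars run from the lowest to the highest of 56 libraries, with values under 1 drawn at 1. The median member is at 999 CPM per kb, and RPS28, RPL36A, RPL21, RPL9 and RPL37 sit at the low end. The place of RPL37 rests on the long transcript used for its length.

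The 3 stalk proteins and RPSA are described for their separate roles. RPLP0, RPLP1 and RPLP2 form the acidic stalk that recruits elongation factors, and RPSA sits on the small subunit and was first described as a laminin receptor. RPLP0 ran from 1442 to 4911 CPM in MINO-P (median 2622), from 1496 to 4035 CPM in MINO-VR (median 2415), from 2173 to 4111 CPM in JEKO-1 (median 2545) and from 1875 to 7491 CPM in Z138 (median 5034). The Z138 median was the highest, but the ranges of the 4 cultures overlapped and the difference from MINO-P was 0.47 (SE 0.24, limma adjusted p = 0.112). RPLP1 ran from 1109 to 6292 CPM in MINO-P (median 2032), from 1271 to 4105 CPM in MINO-VR (median 2026), from 1314 to 3227 CPM in JEKO-1 (median 2934) and from 1177 to 4564 CPM in Z138 (median 2887). RPLP2 ran from 603 to 2833 CPM in MINO-P (median 1055), from 639 to 2094 CPM in MINO-VR (median 1001), from 151 to 2266 CPM in JEKO-1 (median 1399) and from 480.0 to 1613 CPM in Z138 (median 787). For both the ranges overlapped in all cultures, with JEKO-1 differing from MINO-P by -0.11 (SE 0.28, limma adjusted p = 0.781) for RPLP1 and by -0.11 (SE 0.32, limma adjusted p = 0.81) for RPLP2. RPSA ran from 445 to 1582 CPM in MINO-P (median 1037), from 510.1 to 1485 CPM in MINO-VR (median 942), from 970.2 to 4369.6 CPM in JEKO-1 (median 1146) and from 567 to 2284 CPM in Z138 (median 1481). None of the 4 genes was called in any of the 3 comparisons of lines, and RPLP2 fell to 151 CPM in JEKO-1 BTZ replicate 3, where RPSA was at its highest.

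The members moved up and down together from library to library. Their sum ranged from 3.48% to 16.6% of a library (median 7.23%), and from 1.34% to 15.0% as deposited. The SD of a member's log2 level over the 56 libraries was 0.734 in the median member, and 0.416 when each value was first divided by the library's member sum; the SD was smaller after that division for 76 of the 77 members. In poly-A bulk RNA a changed share can come from these mRNAs or from all the others, and fewer cells of a kind and less RNA per cell cannot be told apart.

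Untreated libraries lay close together, at 7.14% in MINO-P, 7.24% in MINO-VR, 6.78% in JEKO-1 and 7.52% and 7.45% in Z138. IBR libraries covered most of the range of the study. In MINO-P the 3 IBR libraries were at 16.5%, 16.6% and 10.3%, all above the CON library, and the 2 IBR_CLF libraries at 16.1% and 16.5%. In MINO-VR the IBR libraries were at 12.1%, 11.9% and 6.73%, so the third lay below CON, and IBR_CLF at 11.5% and 11.4%. In JEKO-1 they were at 9.1%, 9.26% and 4.5%, on both sides of CON, and in Z138 at 12.3% and 4.79%. IBR libraries thus lay above CON in MINO-P and on both sides of it in the other 3 cultures. BTZ libraries were above CON in Z138 (12.6%) and below it in JEKO-1 (6.4%, 6.7% and 3.48%), MINO-P (5.18%) and MINO-VR (6.41%). YM155, with 1 library in each culture, was likewise above CON in Z138 (9.87%) and below it in JEKO-1 (4.66%), MINO-P (4.48%) and MINO-VR (5.07%). S63845 libraries lay on both sides of CON in MINO-P (4.53% and 7.47%), slightly below it in MINO-VR (7.22%) and below it in JEKO-1 (6.04%), and around it in Z138 (8.36% and 7.42%). As deposited, the 2 JEKO-1 BTZ_CLF libraries fell to 1.34% and 2.37%, against 6.88% and 6.86% with Chromosome M left out, which took 80.5% and 65.5% of those libraries.

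**Figure D2:**
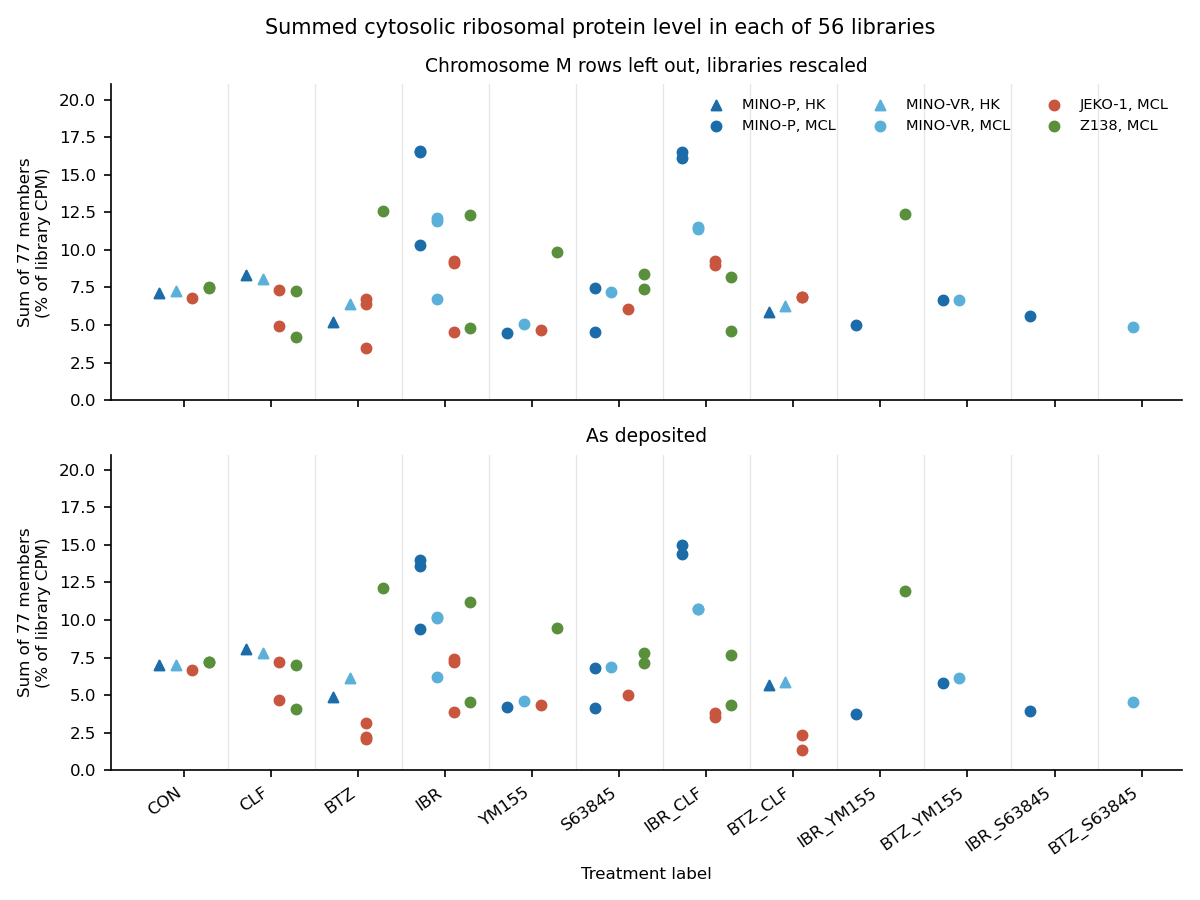
Sum of the 77 members as a percent of library CPM (y axes) for every library, by treatment label (x axis) and culture (colour), with triangles for the HK and circles for the MCL name series; upper panel with Chromosome M rows left out, lower panel as deposited. The 5 CON libraries lie between 6.78% and 7.52% in the upper panel, and IBR libraries between 4.5% and 16.6%.

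No member was called in any of the 7 treatment comparisons, which were fitted by limma over all 56 libraries with treatment, line and name series as terms and adjusted over the 17203 genes tested. With median-of-ratios size factors the count was 0 as well in all 7. For BTZ against CON 0 of 77 members passed, while 18.6% of all genes did; 3 members had an unadjusted p under 0.05, and the member median was -0.22 against -0.17 over all genes. That median was -0.60 as deposited, -0.05 with size factors, -0.42 without Z138 BTZ replicate 1 and 0.01 without JEKO-1 BTZ replicate 3, so its sign rests on that library. The nearest to the threshold was RPL23A, which seats the signal recognition particle at the exit of the peptide tunnel, at -0.75 (SE 0.30, limma adjusted p = 0.0683), ahead of RPL7A at -0.78 (SE 0.33, limma adjusted p = 0.0902) and RPS26 at -1.14 (SE 0.54, limma adjusted p = 0.139). As deposited these 3 were called lower (22.3% of all genes were), with RPL7A at -1.16 (adjusted p = 0.0216), RPL23A at -1.12 (adjusted p = 0.0236) and RPS26 at -1.48 (adjusted p = 0.0384); the median of all genes was then -0.42. Without Z138 BTZ replicate 1 the number called with Chromosome M left out was 2, and without JEKO-1 BTZ replicate 3 it was 1. The shares of all genes called without these libraries are not given here.

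For IBR against CON 0 members passed (10.8% of all genes did; 1 member at unadjusted p under 0.05), although 74 of the 77 estimates were above 0, with a median of 0.27 against 0.00 for all genes. In JEKO-1 and Z138 alone, whose libraries share the MCL name series, the median was 0.02, and without Z138 IBR replicate 2 it was 0.43. The widest was RPL28 at 0.71 (SE 0.34, limma adjusted p = 0.187); its 11 IBR libraries averaged 1746 CPM (SD 888) and the 5 CON libraries 1058 (SD 295). Since the members share each library's movement, the number of estimates on a side of 0 is not a count of independent results. For YM155 0 members passed (1.15% of all genes; 2 members at unadjusted p under 0.05), with a median of -0.46 against 0.05 and 75 of 77 estimates below 0; the median was -0.08 in JEKO-1 and Z138 alone, -0.81 without the Z138 YM155 library and -0.27 without the MINO-P YM155 library. The largest fall in estimate, that of RPL41, was -1.16 (SE 0.56, limma adjusted p = 0.323). For CLF the count was 0 of 77 (0% of all genes, 62 genes at unadjusted p under 0.05 of which 0 were members), with a median of -0.13. For S63845 it was 0 of 77 (0% of all genes, 428 genes at unadjusted p under 0.05, 0 of them members), with a median of -0.22. IBR_CLF against IBR (0% of all genes) and BTZ_CLF against BTZ (0.0698% of all genes) also gave 0 members, with 0 at unadjusted p under 0.05 in each. Their member medians changed sign with the scale: 0.10 and 0.17 with Chromosome M left out, and -0.11 and -0.28 as deposited. The median SE of a member was 0.37 for BTZ and 0.36 for IBR.

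Genes that assemble ribosomes were counted beside the members. Of 29 ribosome biogenesis genes tested, 13 were called lower and 0 higher in BTZ (list median -0.77), where 13.8% of all genes were lower and 4.87% higher. In IBR 18 were lower and 0 higher (median -0.98), where 6.39% of all genes were lower and 4.37% higher. BOP1, which processes large subunit rRNA, had a BTZ difference of -2.31 (SE 0.55, limma adjusted p = 0.00201). DKC1, the pseudouridine synthase of box H/ACA particles, differed by -1.42 (SE 0.25, adjusted p = 7.88e-05) in BTZ and by -1.47 (SE 0.25, adjusted p = 1.37e-04) in IBR. NCL, nucleolin, differed by -1.20 in BTZ (adjusted p = 2.57e-04) and -1.11 in IBR (adjusted p = 0.00147). Mitochondrial ribosomal proteins are nuclear genes for the separate ribosome of the mitochondrion. Of 76 tested, 17 were called lower and 1 higher in BTZ, where 13.8% of all genes were lower and 4.87% higher. In IBR 8 of the 76 were lower and 0 higher, where 6.39% of all genes were lower and 4.37% higher. Whether the lists differ from the members was not tested. The list counts come from the fit of all 56 libraries, in which libraries of an a-suffix pair count singly. How they change with such pairs averaged, or in JEKO-1 and Z138 alone, is not given here. In both MINO cultures the IBR libraries carry MCL names and the CON libraries HK names. The 5 CON libraries are shared by the BTZ and IBR comparisons, so the values of these libraries enter both.

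**Figure D3:**
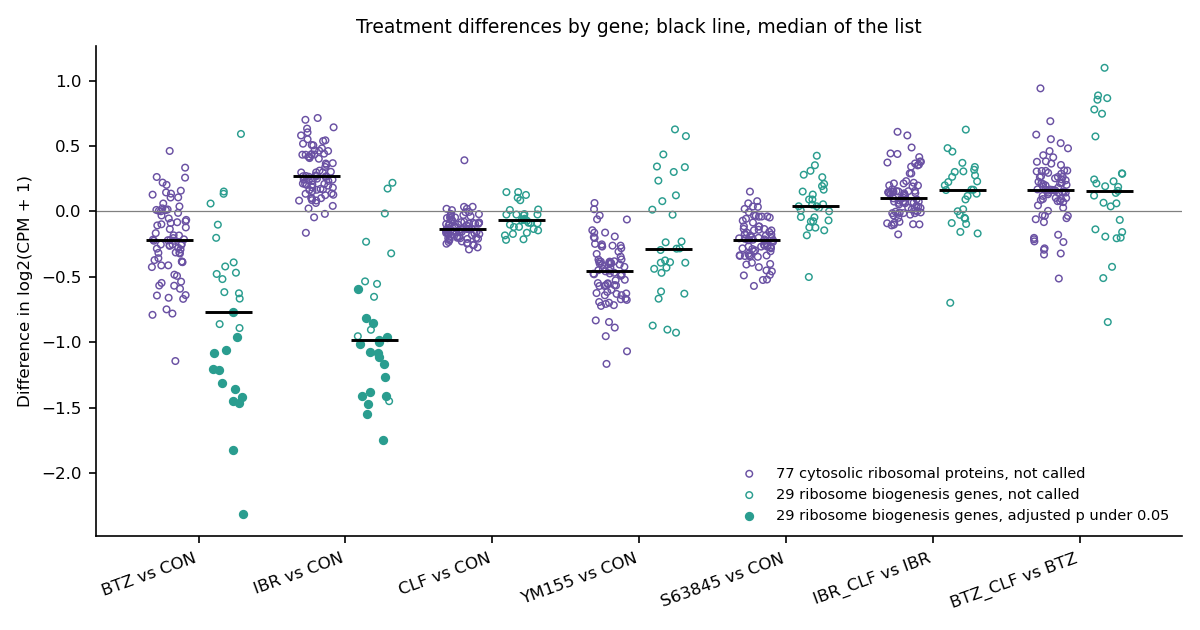
Difference in log2(CPM + 1) (y axis) in 7 treatment comparisons (x axis), 1 point a gene, for the 77 members (purple) and 29 ribosome biogenesis genes (green); filled points passed adjusted p under 0.05 and black lines are list medians. Filled points occur only in the green lists of BTZ and IBR, 13 and 18 genes.

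Libraries of a single group could differ by more than the treatment medians above. In the IBR groups of JEKO-1 and both MINO cultures and in JEKO-1 BTZ, the library outside the a-suffix pair held the members lower than both libraries of the pair, by a median of 0.69 to 1.48 in log2. Short transcripts differed more than the others in these IBR groups. Over the 20 members with the shortest transcripts (296 to 560 nt, among them RPS29, RPL39 and RPL41), the median difference between MINO-P IBR replicates 1 and 3 was 1.34, against 0.575 over the other 57 members. Between JEKO-1 IBR replicates 1 and 3 it was 1.61 against 0.985. RPL37 was counted among the other 57 by the long transcript used for it. The 20 shortest made up 10.9% to 22.6% of the member sum, and the 10.9% was JEKO-1 BTZ replicate 3. RPL39, which lines the peptide exit tunnel, stood at 707 CPM in Z138 IBR replicate 1 and at 72 CPM in replicate 2. RNA quality has no direct value in the table, and its part in this spread was not tested.

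More members were called in JEKO-1 and Z138 against MINO-P than between treatments, and so were more of all genes. Of 17203 genes, 6725 were called in JEKO-1, 6767 in Z138 and 1261 in MINO-VR. BTZ had 3204, the most of any treatment comparison. The median SE of a member was 0.27 in JEKO-1 and 0.26 in Z138, below the 0.37 of BTZ. In JEKO-1 against MINO-P 3 of the 77 members were called higher (22.8% of all genes were) and 30 lower (16.3% of all genes were); the member median was -0.53 and that of all genes 0.06. The members called lower were 30 of 77, a larger share than among all genes, and those called higher a smaller one. The fit gives each line 1 difference for all treatments, and whether that of JEKO-1 varied by treatment was not tested. Members share each library's movement, so these calls are not independent results. The mean member sum in JEKO-1 and MINO-P was 7.62% and 14.5% in IBR and 9.11% and 16.3% in IBR_CLF. It was 6.78% and 7.14% in CON, 6.12% and 8.34% in CLF and 5.53% and 5.18% in BTZ. It was 6.87% and 5.84% in BTZ_CLF, 4.66% and 4.48% in YM155 and 6.04% and 6.0% in S63845. As deposited 1 was higher (12% of all genes) and 45 lower (25.3% of all genes). Without JEKO-1 BTZ replicate 3, an alternative chosen after the data were seen, 4 were higher and 31 lower, and RPS26 stood at -2.11 (limma adjusted p = 7.13e-09) and RPL10 at -1.97 (limma adjusted p = 9.86e-10). The share of all genes called under that alternative is not given here. By subunit, 19 of 46 large subunit and 11 of 31 small subunit members were lower.

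The largest falls were in RPS26, RPL10 and RPL26. RPS26 (chr12:56041351-56044698, hg38) lies by the mRNA exit and contacts the Kozak sequence. RPS26 ran from 23.1 to 365 CPM in MINO-P (median 134), from 105 to 263 CPM in MINO-VR (median 151), from 0 to 98.4 CPM in JEKO-1 (median 29.9) and from 45.5 to 102 CPM in Z138 (median 78.3). JEKO-1 had the lowest median. All its libraries were below those of MINO-VR, while they overlapped with MINO-P, where the YM155 library was low, and with Z138. JEKO-1 differed from MINO-P by -2.23 (SE 0.40, limma adjusted p = 1.25e-05). RPL10 (chrX:154389955-154409169) completes the large subunit at a late step. RPL10 ran from 1079 to 4768 CPM in MINO-P (median 2348), from 1860.2 to 5219.7 CPM in MINO-VR (median 2962), from 55.1 to 1122 CPM in JEKO-1 (median 611) and from 1266 to 4788 CPM in Z138 (median 3086). All JEKO-1 libraries were below all others except that JEKO-1 IBR replicate 2 was above the MINO-P YM155 library, and the difference was -2.06 (SE 0.31, limma adjusted p = 4.28e-07). RPL26 (chr17:8377516-8383214) sits near the exit tunnel and is also known to bind p53 mRNA. RPL26 ran from 424 to 1683 CPM in MINO-P (median 660.0), from 474 to 1212 CPM in MINO-VR (median 776), from 132 to 330.3 CPM in JEKO-1 (median 215) and from 369 to 1551 CPM in Z138 (median 855). Every JEKO-1 library was below every library of the other 3 cultures, and the difference from MINO-P was -2.03 (SE 0.23, limma adjusted p = 8.46e-10). RPL26L1, a paralog of RPL26 on another chromosome, was higher in JEKO-1 by 1.46 (SE 0.22, adjusted p = 4.73e-07). The other 27 members called lower had differences of -0.64 (RPL6) to -1.82 (RPS28).

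The 3 members called higher in JEKO-1 were RPL9, RPL31 and RPS3. RPL9 (chr4:39452587-39458932) binds near the sarcin-ricin loop where elongation factors dock. RPL9 ran from 14.7 to 54.8 CPM in MINO-P (median 31.4), from 18.4 to 54.6 CPM in MINO-VR (median 37.7), from 51.6 to 226 CPM in JEKO-1 (median 106) and from 59.3 to 136 CPM in Z138 (median 93.6). JEKO-1 and Z138 were high and both MINO cultures low, and only JEKO-1 BTZ replicate 3 reached into the MINO ranges. The difference was 1.74 (SE 0.20, limma adjusted p = 5.91e-10). RPL31 (chr2:101002229-101024033), another protein at the exit tunnel, followed. RPL31 ran from 133 to 1019 CPM in MINO-P (median 304), from 289.9 to 832 CPM in MINO-VR (median 424), from 290.5 to 1267 CPM in JEKO-1 (median 925) and from 296 to 1397 CPM in Z138 (median 648). The ranges overlapped, and the difference of 0.92 (SE 0.30, limma adjusted p = 0.0135) was 0.52 (adjusted p = 0.21) as deposited. RPS3 (chr11:75399515-75422281), whose ranges overlapped too, ran from 1067 to 4697 CPM in MINO-P (median 1821), from 1419 to 4075 CPM in MINO-VR (median 2236), from 1285 to 6113 CPM in JEKO-1 (median 4020.1) and from 917 to 3021 CPM in Z138 (median 1554). Its difference was 0.71 (SE 0.28, limma adjusted p = 0.0371); it was 0.31 (adjusted p = 0.457) as deposited, and the call was lost under 6 of 14 alternatives.

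**Figure D4:**
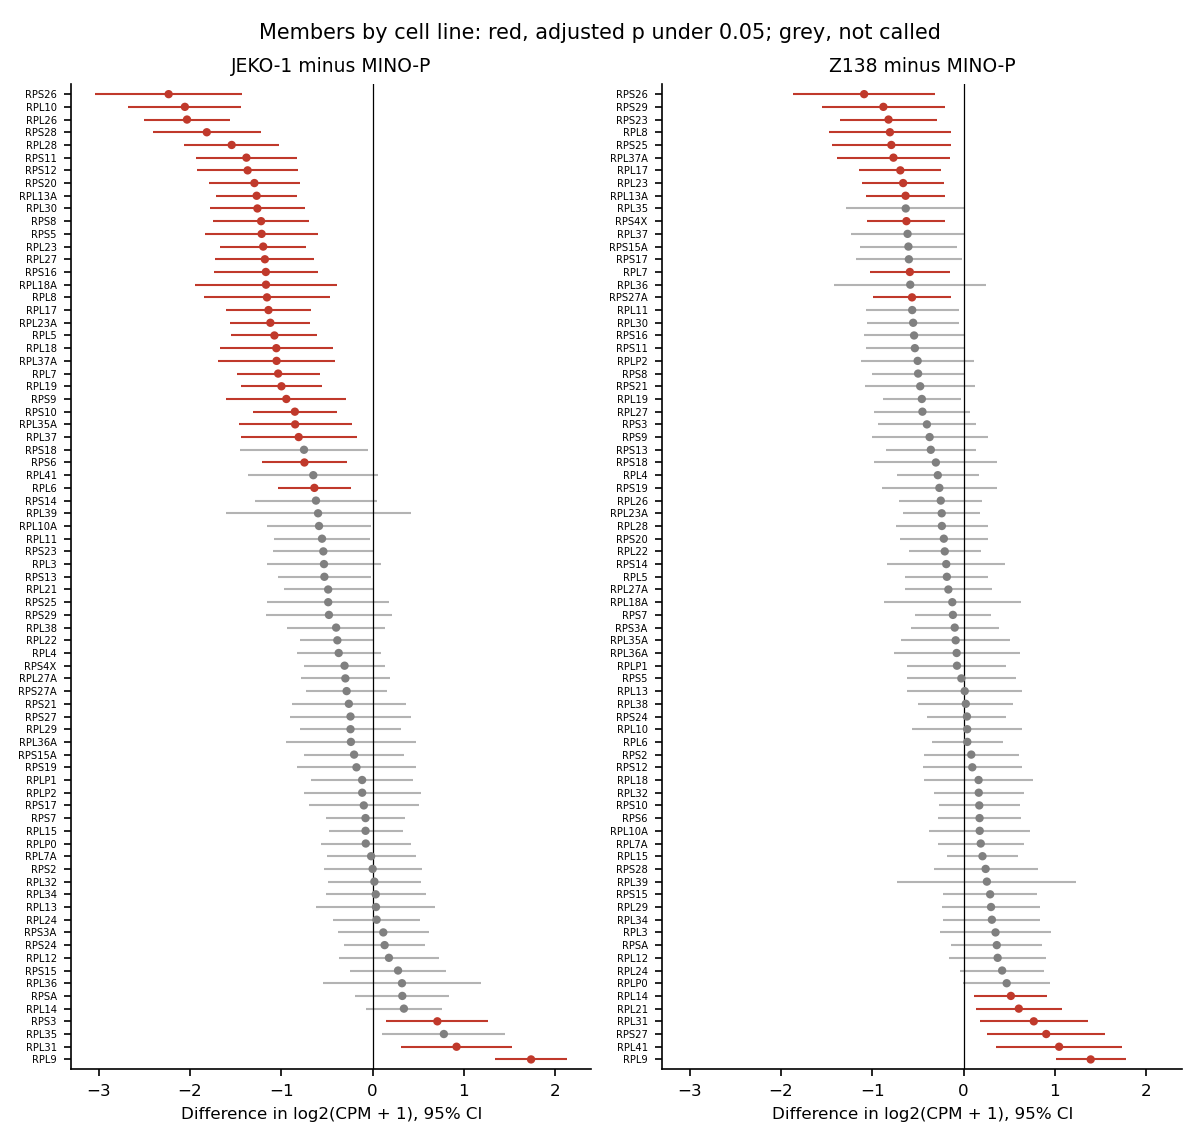
Difference from MINO-P in log2(CPM + 1) with its 95% confidence interval (x axes) for each member (y axes, ordered within each panel), JEKO-1 on the left and Z138 on the right; red marks adjusted p under 0.05. JEKO-1 has 30 red members below 0 and 3 above, Z138 12 below and 6 above.

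In Z138 against MINO-P 6 members were called higher (21.2% of all genes were) and 12 lower (18.2% of all genes were). The split depended on the scale. As deposited 6 were higher (22.9% of all genes) and 1, RPS26, lower (14.7% of all genes). With median-of-ratios size factors 3 were higher and 9 lower, while 6898 of 17186 genes were called in either direction. Of the 77 members, the shares called with Chromosome M left out were below those of all genes in both directions. RPL9 rose most, by 1.39 (SE 0.19, limma adjusted p = 5.39e-08); all Z138 libraries were above all MINO-P libraries. RPL41 (chr12:56116590-56117968), the shortest ribosomal protein, differed by 1.05 (SE 0.34, limma adjusted p = 0.0125). RPL41 ran from 164 to 1439.9 CPM in MINO-P (median 313), from 227 to 1035 CPM in MINO-VR (median 433), from 107 to 456 CPM in JEKO-1 (median 264) and from 355 to 2322 CPM in Z138 (median 889.8). RPS27 (chr1:153990762-153992156), a zinc finger protein on the surface of the small subunit, differed by 0.91 (SE 0.32, limma adjusted p = 0.0213). RPS27 ran from 45.3 to 351 CPM in MINO-P (median 96), from 64.7 to 229 CPM in MINO-VR (median 88.1), from 37 to 227 CPM in JEKO-1 (median 117) and from 82.1 to 878 CPM in Z138 (median 206). For both RPL41 and RPS27 the high Z138 libraries reached above all others while the low ones lay within the MINO-P range. The lower members were led by RPS26 at -1.09 (SE 0.39, limma adjusted p = 0.0219), RPS29 (chr14:49570984-49599165, a zinc-binding protein of the small subunit head) at -0.88 (SE 0.33, limma adjusted p = 0.0318) and RPS23 (chr5:82273320-82278397, a protein of the decoding centre) at -0.82 (SE 0.27, limma adjusted p = 0.0113). RPS29 ran from 105 to 784 CPM in MINO-P (median 170.3), from 104 to 537 CPM in MINO-VR (median 144), from 59 to 330.3 CPM in JEKO-1 (median 183) and from 56 to 308 CPM in Z138 (median 149). RPS23 ran from 862 to 3583 CPM in MINO-P (median 1311), from 786 to 2262 CPM in MINO-VR (median 1192), from 587 to 2649.7 CPM in JEKO-1 (median 1366) and from 521 to 1954 CPM in Z138 (median 909.6). The ranges overlapped for both; as deposited they were -0.75 (adjusted p = 0.0926) and -0.69 (adjusted p = 0.0685), and with the libraries of an a-suffix pair averaged none of these 3 was called. The comparisons of JEKO-1 and Z138 share the MINO-P libraries.

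Between MINO-VR and MINO-P a single member was called. RPL7A was higher in MINO-VR (4.21% of all genes were higher) and no member lower (3.12% of all genes were lower; 7 members had an unadjusted p under 0.05 in either direction). RPL7A (chr9:133348218-133351427) is a large subunit protein whose introns host snoRNAs. RPL7A ran from 325 to 1448 CPM in MINO-P (median 778), from 782 to 2063 CPM in MINO-VR (median 1353), from 205 to 1414 CPM in JEKO-1 (median 713) and from 575 to 1806 CPM in Z138 (median 985). The ranges of MINO-P and MINO-VR overlapped, and the difference was 0.85 (SE 0.21, limma adjusted p = 0.00675). With the MCL name series alone it was 0.69 (adjusted p = 0.207). The largest pseudogene row of that family, RPL7AP6, had medians of 626 CPM in MINO-P and 1187 CPM in MINO-VR, and how reads shared with it were assigned is not given in the sources used here.

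Over all 4 cultures the range of the line medians was widest for RPL10 (2.34 in log2), RPS26 (2.30), RPL26 (1.99), RPL35 (1.93) and RPS28 (1.85). RPL35, which neighbours the exit tunnel, ran the other way from most: its median was highest in JEKO-1. RPL35 ran from 377 to 2630.0 CPM in MINO-P (median 835), from 751 to 2514 CPM in MINO-VR (median 1178), from 311 to 3502 CPM in JEKO-1 (median 2261) and from 371 to 1214 CPM in Z138 (median 594). JEKO-1 overlapped with MINO-P, and its difference of 0.78 (SE 0.33, limma adjusted p = 0.0585) did not pass. RPS28 ran from 25.1 to 103 CPM in MINO-P (median 47.9), from 23.3 to 76.6 CPM in MINO-VR (median 37.5), from 2.89 to 34.1 CPM in JEKO-1 (median 17.4) and from 24.3 to 114 CPM in Z138 (median 65). RPS28 differed in JEKO-1 by -1.82 (SE 0.29, limma adjusted p = 1.84e-06). Its pseudogene rows had medians of 12.2 CPM in MINO-P and 11.3 CPM in JEKO-1, or 20.9% and 45.9% of the joint CPM. The log2 median of gene and pseudogenes together was 5.83 in MINO-P and 5.01 in JEKO-1. The range was narrowest for RPL22 (0.21), RPS13 (0.24), RPL37A (0.26), RPS14 (0.27) and RPS3A (0.28). RPS14 is the gene tied to the anaemia of the 5q- syndrome, and RPL22 binds a viral RNA and T-cell regulators besides its place in the ribosome. RPL22 ran from 229 to 752 CPM in MINO-P (median 333), from 247 to 522 CPM in MINO-VR (median 325), from 187 to 616 CPM in JEKO-1 (median 371) and from 268 to 617 CPM in Z138 (median 377). A narrow range of medians does not by itself show equal levels. In the fit, with treatment and name series as terms, RPL37A differed from MINO-P by -1.05 (SE 0.32, limma adjusted p = 0.00671) in JEKO-1. That fit gives each line 1 difference for all treatments, so it need not match the medians, and neither value settles the level.

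**Figure D5:**
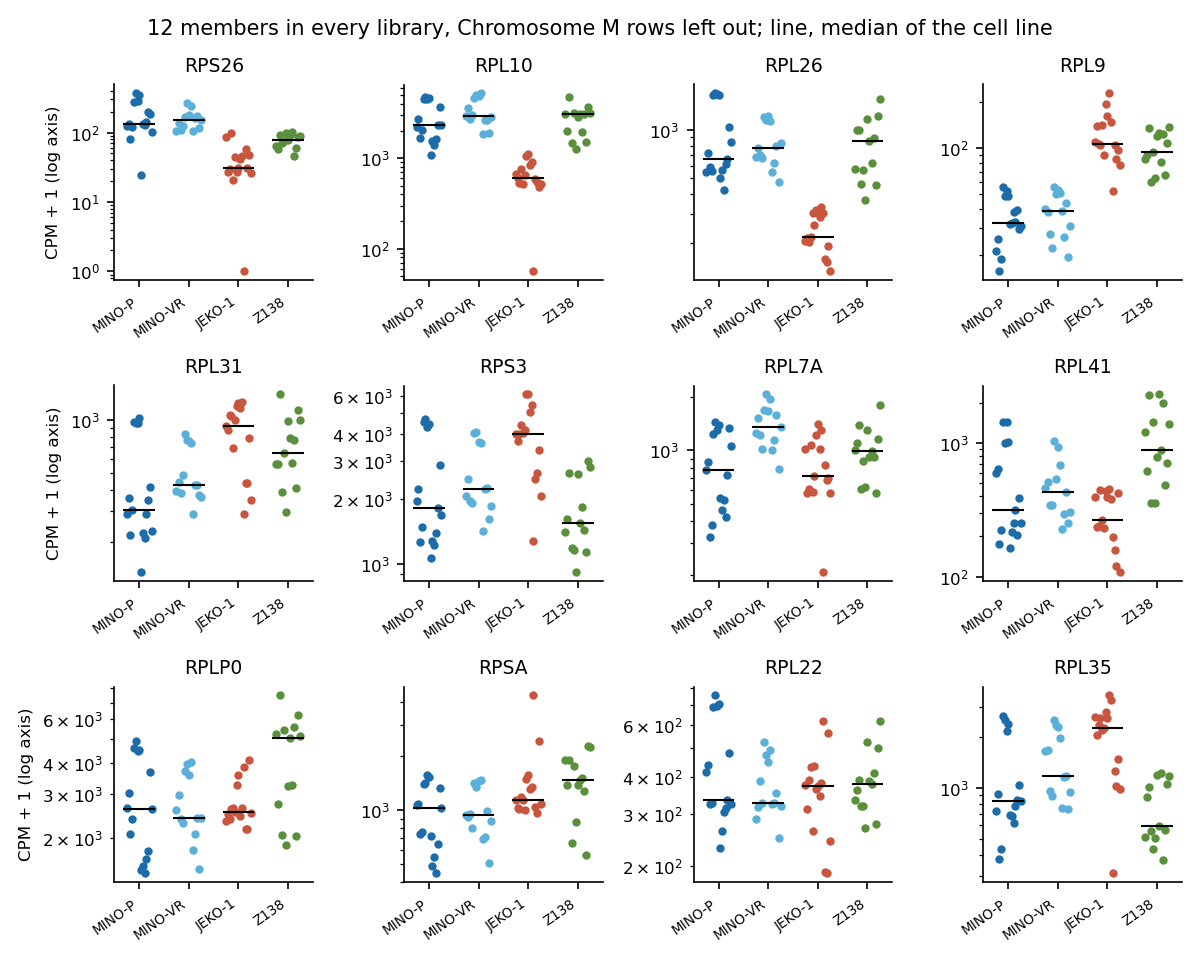
CPM + 1 (y axes, log) of 12 members in each library by culture (x axes), with Chromosome M rows left out; black lines are medians. RPL26 in JEKO-1 lies under all libraries of the other cultures, and RPL9 is higher in JEKO-1 and Z138 than in most MINO libraries.

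The members called lower in JEKO-1 were counted by chromosome. Among chromosomes with at least 4 members, 9 of 12 were lower on chromosome 19 (19.7% of all genes there), 5 of 6 on chromosome 17 (32%) and 4 of 4 on chromosome 8 (34%). The count was 2 of 5 on chromosome 1 (15.6%), 2 of 4 on chromosome 6 (19%), 2 of 4 on chromosome 12 (12.4%), 1 of 4 on chromosome X (22.4%) and 1 of 4 on chromosome 2 (17.1%). It was 1 of 7 on chromosome 3 (5.91%), 1 of 4 on chromosome 9 (6.75%) and 0 of 5 on chromosome 11 (7.56%). The median difference of all genes was 0.02 on chromosome 19, -0.23 on chromosome 17 and -0.25 on chromosome 8. Genes within 1 Mb (ribosomal protein genes and their pseudogenes left out) had a median JEKO-1 difference below 0 around 25 of the 30 members called lower, and around 38 of all 77 members. Around RPL26 46 of 57 neighbours were below 0 (median -0.72), and around RPL10 49 of 58 (median -0.85). RPS3, called higher, had 20 of 22 neighbours above 0 (median 0.76). Around RPS26 the neighbours went the other way, with 38 of 52 above 0 (median 0.41), and around RPL9 the median was -0.04. For RPL7A in MINO-VR 32 of 34 neighbours were above 0 (median 0.66, against 0.21 for its chromosome). In Z138 the neighbour median was below 0 around 5 of the 12 members called lower and 28 of all 77. The part of these neighbourhoods in the members' differences was not tested.

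Related genes outside the naming rule were taken as lists. Of 7 paralogs tested, RPL26L1, RPL7L1 (0.97, adjusted p = 2.75e-05) and RPL3L (0.77, adjusted p = 3.46e-04) were higher in JEKO-1, while RPL22L1 (0.95, adjusted p = 0.00826) and RPL26L1 (0.88, adjusted p = 7.92e-04) were higher in Z138. RPL39L, a paralog of RPL39 known from testis, was lower in BTZ (difference -1.20, SE 0.35, adjusted p = 0.0119). Among 18 other translation genes with 5' TOP mRNAs, 7 were lower and 2 higher in JEKO-1 (16.3% and 22.8% of all genes). EIF3E, a subunit of the initiation factor that binds the small subunit, was at -1.35 (adjusted p = 2.30e-07), EEF1D at -1.31 and EEF1A1, the tRNA carrier of elongation, at -1.20 (adjusted p = 2.40e-04 and 1.09e-04). NACA, which guards nascent chains, was higher by 0.78. In Z138 2 of the 18 were higher and 1 lower, and in BTZ TPT1 was higher by 0.78 (adjusted p = 0.0361). Of the ribosome biogenesis genes 14 of 29 were higher and 1 lower in JEKO-1, and of the mitochondrial ribosomal proteins 34 of 76 were higher and 3 lower. Of 281 pseudogene rows tested, 47 were lower and 1 higher in JEKO-1, and 12 lower and 43 higher in Z138; all genes were lower for 16.3% and 18.2% and higher for 22.8% and 21.2% in these lines, so the pseudogene shares were near or under those of all genes.

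The response to BTZ and to IBR was also compared between JEKO-1 and Z138, whose libraries all carry MCL names. For BTZ 0 members were called (0% of 16501 genes; 3 members and 1303 genes in all at unadjusted p under 0.05 by limma). The BTZ difference from CON was lower in JEKO-1 than in Z138 for 75 of 77 members, with a median of -1.28 and a median SE of 1.07, against 0.13 over all genes. As deposited the member median was -2.38 against -0.63 over all genes, with 45 members and 2935 genes in all at unadjusted p under 0.05 and again 0 called. Without JEKO-1 BTZ replicate 3 the median was -0.80. A single Z138 BTZ library and JEKO-1 BTZ replicate 3 enter this contrast. For IBR 0 members were called (0% of all genes; 0 members and 604 genes at unadjusted p under 0.05), with a median of -0.08 and a median SE of 0.97; the median was 0.56 without Z138 IBR replicate 1, -0.67 without Z138 IBR replicate 2 and 0.27 without JEKO-1 IBR replicate 3.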

How the data were processed

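Poly-A RNA of 56 libraries was sequenced as 150 bp paired reads, per the series' design text. The authors deposited 1 table of log2(CPM + 1) values, where CPM is a gene's reads scaled to a common library total; the submitters' processing notes name Partek and hg38, and the aligner, counter, annotation and use of strand are not given in the sources used here. The log2 values were turned back into CPM, the row that names no gene and the 15 Chromosome M rows were left out, and each library was rescaled to the same total. Genes at 1 CPM or more in at least 2 libraries were tested on log2(CPM + 1), pseudocount 1, with limma 3.58.1 (trend, R 4.3.3) in 1 fit of treatment, line and name series, with Benjamini-Hochberg adjustment over all genes tested and a threshold of 0.05. The fit of all 56 libraries had no term for treatment responses that differ by line. Responses in JEKO-1 and Z138 were compared in a fit of those 28 libraries. The procedure was tested on simulated data. Levels per kb use, for each gene, the shortest GENCODE coding transcript whose coding length equals that of the principal transcript. Depth was read from the steps of low values: 76.6% to 89.1% of values under 20 reads came out whole within 0.05 reads, so no count test was run. Alternatives were the deposited scale, size factors, a-suffix pairs averaged, other filters, a pseudocount of 0.1, other terms, the MCL name series alone and libraries left out; leaving out JEKO-1 BTZ replicate 3 was chosen after seeing the data. Named members are, of those called in each comparison, the 3 highest and the 3 lowest differences (fewer where fewer were called), the 5 highest and 5 lowest per kb, the 5 with the widest and 5 with the narrowest range of line medians, and RPLP0, RPLP1, RPLP2 and RPSA; other members and list genes named were chosen after their values were seen. Members and lists were chosen with earlier results of these data known. No value column lacked a sample. A gene of the lists is not reported here.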

Additional observations from a re-analysis of the deposited data

Results flagged for a closer look

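The sum of the 77 members lay above CON in every library of some cultures and below CON in every library of others under 5 labels. The measure was the log2 ratio of a library's sum to CON of its own culture, averaged within a culture. Under IBR_YM155, with 1 library in each culture, it was higher in Z138 and lower in MINO-P, and the means spanned 1.24. Under BTZ it was higher in Z138, with 1 library, and lower in JEKO-1, MINO-P and MINO-VR, spanning 1.21. Under YM155 it was higher in Z138 and lower in the other 3 cultures, spanning 1.07, with 1 library in each culture. Under CLF it was higher in MINO-P and MINO-VR and lower in Z138, spanning 0.663, while the JEKO-1 libraries lay on both sides of CON. Under BTZ_CLF it was higher in JEKO-1, by at most 0.0209, and lower in MINO-P and MINO-VR, spanning 0.31. These differences between cultures were not tested for the sum. Under YM155 and IBR_YM155 the MINO libraries carry MCL names and their CON libraries HK names. In Z138 and JEKO-1 both carry MCL names. Under these labels the name series therefore cannot be told apart from the differences between the MINO cultures and Z138.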

How the results depend on the processing

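For BTZ against CON the number of members called was 0, and 3 as deposited; with libraries left out in turn it ran from 0 to 2, with 2 without Z138 BTZ replicate 1 and 1 without JEKO-1 BTZ replicate 3. For MINO-VR against MINO-P it was 1, and 0 with the MCL name series alone. For Z138 against MINO-P it was 18, and 7 as deposited, 9 with a-suffix pairs averaged and 9 with the MCL name series alone. For JEKO-1 against MINO-P it was 33, and 46 as deposited, within 1.5 times. Over all genes the Z138 count was 6767 of 17203, and 6209 of 16498 as deposited. That of JEKO-1 was 6725, and 6156 as deposited. Counts of all genes under the other alternatives of this section are not given here, so those member counts stand without a share. No paired analysis was possible because the replicate numbers only follow accession order. The final letter of library names, a or A against none, was fitted as a block over all cultures, and the number of members called was then 33 for JEKO-1, 18 for Z138, 1 for MINO-VR and 0 for each of the 7 treatment comparisons, as without it. With 22 of 37 groups holding 1 library, the spread is pooled over groups, and a lone library is assumed to vary like the others. Pseudogene rows held more than 50% of the joint CPM in 10 members and less than 10% in 48. The levels of members between these bounds, such as RPL7A at 48.6%, are uncertain as well.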
